A study of Mus musculus with 10 samples.

Results

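Heat shock chaperones bind unfolded or newly made proteins and help them fold. The 10 genes described here encode 8 chaperones of the cytosol and 2 of mitochondria: the HSP70 proteins Hspa8, Hspa1a and Hspa1b, their helpers Hsph1 and Dnajb1, the HSP90 proteins Hsp90aa1 and Hsp90ab1, the small heat shock protein Hspb1, and the mitochondrial chaperonin pair Hspd1 and Hspe1. They were taken by gene symbol from a count table of 21849 genes. All 10 had enough counts to be among the 12929 genes tested.

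HSP70 and HSP90 work in cycles of ATP use and pass client proteins between them, with J-domain proteins and nucleotide exchange factors setting the pace. Under heat, hypoxia or a load of unfolded protein, the transcription factor HSF1 binds heat shock elements, repeats of the letters GAA in alternating orientation, and drives the inducible members of the group. Tumour cells are known to carry high levels of HSP90 and HSP70.

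The RNA came from 10 tumours that CT26 cells, a colon carcinoma line of BALB/c mice, had formed under the skin of BALB/c mice. These mice, aged 5 weeks at the outset, went on their diet 1 week before the cells were implanted, and gave their tumours on day 20. Of the 10 libraries, 5 came from mice on an arginine-deficient diet (titled Arg) and 5 from mice on a normal diet of the same calories (titled Control). No genotype other than the strain, and no drug, is named for either group. Each library was total RNA of a whole tumour, so a lower value can mean fewer cells of a type or less RNA per cell, and these cannot be told apart. The labels do not say in so many words that each library is a separate mouse. If libraries shared a mouse, the p-values would in part measure the spread between tumours of the same mouse.

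Library totals ran from 12013178 to 31530123 counts. The tumours held few transcripts of gut epithelium: of 9 markers only Krt20, at 83.0 to 264 CPM (counts scaled to a library of fixed size), stood above 25 CPM, and Epcam, Cdx2 and Vil1 were too low to test. Skeletal muscle markers, 13 genes, summed to 6124 CPM in deficient replicate 3, 1576 CPM in deficient replicate 4 and 564 CPM in normal replicate 4, against 5.14 to 74.5 CPM in the other 7 libraries. Acta1, one of them, was listed at 0 in all libraries. Mitochondrial genes took 9.97% of the counts in deficient replicate 3 and 1.67% to 4.44% elsewhere. Gapdh stood at 155 CPM in deficient replicate 1 and 137 CPM in normal replicate 5, against 51.1 to 115 CPM elsewhere. Macrophage markers summed to 2654 to 3038 CPM on the deficient and 2332 to 3166 CPM on the normal diet, and fibroblast markers to 2235 to 4060 and 2740 to 3579 CPM. Red cell markers, 4 genes, summed to 55.9 to 106 CPM on the deficient and 104 to 612 CPM on the normal diet, and were each lower at an unadjusted p under 0.05. Their part in the results was not tested.

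The comparison of the diets asks whether the loss of dietary arginine goes with a change of these chaperones in the tumour. None of the 10 genes passed the test (edgeR quasi-likelihood test, adjusted p under 0.05 over all genes tested), where 0.0541% of all tested genes passed. At an unadjusted p under 0.05 there were 2 of the 10, Hspa8 and Hspb1, both higher on the deficient diet, against 6.74% of all tested genes (3.54% higher and 3.19% lower on the deficient diet). The log2 fold change, also given as the log2 difference (deficient over normal), was positive in 8 of the 10 and negative in Hspa1a and Hspa1b, against 50.3% positive of all tested genes. The median was 0.19 for the 10 genes and 0.0012 for all tested genes. In none of the 10 were the libraries of the diets apart without overlap, which 1.65% of all tested genes showed.

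**Figure D1:**
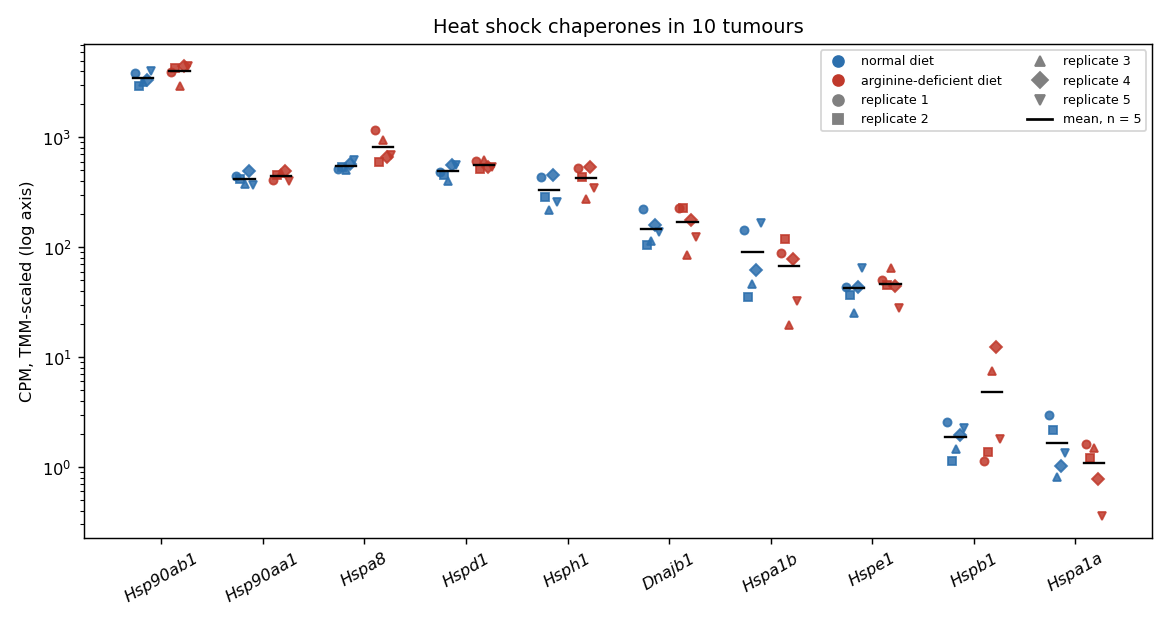
Level of each chaperone gene in each tumour, in CPM scaled with TMM factors on a log axis; points are libraries (shape gives the replicate number), black bars the means of 5 libraries. Hsp90ab1 averages 4009 and 3465 CPM on the 2 diets and Hspa1a 1.09 and 1.66 CPM, and the diets overlap in every gene.

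Per kilobase of annotated exon the genes covered a wide span. Hsp90ab1 averaged 1246 CPM per kb over the 10 libraries, followed by Hspd1 at 200.1, Hspa8 at 159, Hsp90aa1 at 109.9, Hsph1 at 51.8, Dnajb1 at 49.3, Hspe1 at 30.1, Hspa1b at 28.2, Hspb1 at 3.25 and Hspa1a at 0.463 CPM per kb. Hsph1 and Dnajb1, as neighbours in this order, lay within each other's spread on both diets (58.3 ± 15.7 and 52.5 ± 19.8 CPM per kb on the deficient, 45.3 ± 14.96 and 46.2 ± 14.5 on the normal diet; SD, n = 5 each). The same held for Hspe1 and Hspa1b (31.4 ± 8.82 and 24.1 ± 14.5 on the deficient, 28.8 ± 9.59 and 32.2 ± 21.3 on the normal diet). Hspd1 and Hspa8 overlapped on the deficient diet (214 ± 18.8 and 190 ± 55.7) and not on the normal diet (186 ± 26.9 and 128 ± 11.1). Hspd1 and Hspe1 stand far apart in this order although their proteins form one chamber and its lid. Together the 10 genes took 0.498% to 0.709% of all counts of a library.

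Hspa8 encodes the constitutive HSP70 of the cytosol (HSC70), which folds new proteins, strips clathrin coats and feeds proteins to lysosomes. It lies on chromosome 9 at 40800984 to 40810087, forward strand (mm10). Its values were 1175, 602, 947, 669 and 688 CPM in deficient replicates 1 to 5 and 517, 541, 505, 568 and 624.5 CPM in normal replicates 1 to 5. All but 1 deficient library lay above every normal one; replicate 2 fell between normal replicates 4 and 5. The means were 816 ± 239 and 551 ± 47.5 CPM (SD, n = 5 each), a log2 fold change of 0.57 with SE 0.18 (adjusted p = 0.465, unadjusted p = 0.00812 by edgeR). Across the 21 alternative fits and subsets the log2 fold change stayed positive, from 0.39 to 0.66, with adjusted p from 0.0792 to 1.0. The lowest was without deficient replicate 1, the library with most Gapdh. Of Hspa8's runs of 100 bases, 28.5% also occur in transcripts of other annotated genes, mostly Gm15459, so reads may be lost or shared there.

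Hspa1a and Hspa1b encode the inducible HSP70, little made in unstressed cells and made in bulk after heat. They lie side by side on chromosome 17, reverse strand, Hspa1a at 34969190 to 34972156 and Hspa1b at 34956436 to 34959238, each as a single exon. The 250 bases before their RefSeq starts (GRCm38.p6, the build called mm10) are shown because they are near copies, with the heat shock dyad in capitals:

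Hspa1a, chr17:34972157-34972406, reverse strand: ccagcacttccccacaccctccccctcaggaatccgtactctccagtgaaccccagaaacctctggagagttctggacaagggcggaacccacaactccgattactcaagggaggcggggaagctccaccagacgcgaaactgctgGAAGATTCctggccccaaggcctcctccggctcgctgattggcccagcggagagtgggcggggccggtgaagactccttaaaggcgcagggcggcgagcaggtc
Hspa1b, chr17:34959239-34959488, reverse strand: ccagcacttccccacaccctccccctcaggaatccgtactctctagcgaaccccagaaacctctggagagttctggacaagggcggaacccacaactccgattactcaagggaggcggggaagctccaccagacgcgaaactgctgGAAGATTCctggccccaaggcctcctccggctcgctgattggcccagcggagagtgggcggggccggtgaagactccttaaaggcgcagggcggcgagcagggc

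Of these 250 bases 247 are identical. The differences, counted from 1 at the first base printed, are C44T, T47C and T249G, with the Hspa1a base first. Both carry 1 dyad (GAANNTTC or TTCNNGAA, each its own reverse complement), which begins 104 bases before the start. Of 32851 RefSeq promoters, 12.8% hold such a dyad in the same 250 bases.

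Despite these near-identical promoters the table gave the pair very different counts: 5 to 55 per library for Hspa1a and 452 to 2778 for Hspa1b. For Hspa1a, 75.0% of the exon lies within the span of Gm20481, introns included, on the other strand. Gm20481 was itself listed at 0 in all libraries. Of the runs of 100 bases of Hspa1a, 56.5% occur in other transcripts. Hspa1b overlaps no other gene, but 49.9% of its runs of 100 bases also occur in Hspa1a. How many reads of this pair were dropped or credited to the other copy is not known, and the value of Hspa1a is uncertain. In CPM, Hspa1a stood at 1.62, 1.20, 1.49, 0.777 and 0.361 in deficient replicates 1 to 5 and at 2.97, 2.15, 0.809, 1.02 and 1.35 in normal replicates 1 to 5 (log2 difference -0.57 with SE 0.44, edgeR adjusted p = 0.943; -0.26 without normal replicate 1).

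Hspa1b was among the most variable of the 10 genes. Its values were 88.1, 118, 19.6, 78.8 and 32.6 CPM in deficient replicates 1 to 5 and 143, 35.05, 46.5, 61.5 and 166 CPM in normal replicates 1 to 5. The highest 2 libraries were both on the normal diet and the lowest 2 on the deficient diet, with the rest mixed. The means were 67.4 ± 40.7 and 90.4 ± 59.8 CPM (SD, n = 5 each), a log2 fold change of -0.42 with SE 0.52 (adjusted p = 0.987 by edgeR), against 0.09 by limma voom with sample weights. With 1 library left out it ran from -0.72 (deficient replicate 2) to -0.08 (normal replicate 5). Its SD within diets, 1.02 on the log2 scale, was above that of 99.3% of tested genes, whose median was 0.268. With the counts of both copies added into 1 gene the log2 fold change was -0.42 (SE 0.51, adjusted p = 0.984 by edgeR).

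The libraries also differed in how abundance depended on a gene's GC content, and the transcript of Hspa1b is 58.1% GC. The slope of log2 CPM per 10 percentage points of GC was lowest in deficient replicate 3 (-0.52) and normal replicate 2 (-0.33), where Hspa1b was at 19.6 and 35.05 CPM. It was highest in normal replicate 5 (0.37), where Hspa1b was at 166 CPM. The order did not hold throughout: deficient replicate 5, second lowest in Hspa1b at 32.6 CPM, had a slope of 0.11. With the GC and gene length slopes as covariates the log2 fold change of Hspa1b was -0.40 and its SE 0.30 in place of 0.52 (adjusted p = 0.555 by edgeR). The part of this slope in the spread of Hspa1b was not otherwise tested.

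**Figure D2:**
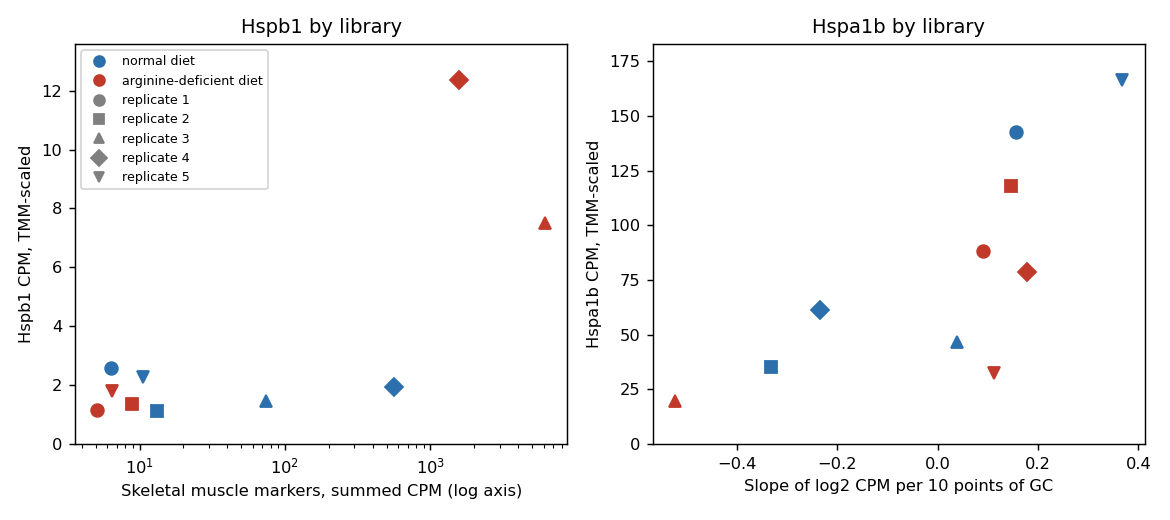
Left, Hspb1 in CPM against the summed CPM of 13 skeletal muscle markers (log axis); right, Hspa1b in CPM against each library's slope of log2 CPM per 10 percentage points of GC content; each point is 1 of 10 libraries. Hspb1 is at 7.49 and 12.4 CPM in the 2 libraries with most muscle transcripts and at most 2.59 CPM in the others, and Hspa1b is lowest, at 19.6 CPM, where the slope is lowest.

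The helpers of HSP70 varied in part with Hspa1b. Dnajb1 encodes the J-domain protein HSP40 that makes HSP70 split ATP, and lies on chromosome 8 at 83608193 to 83612653, forward strand. It stood at 229, 226, 84.6, 177 and 124 CPM in deficient replicates 1 to 5 and at 222, 105, 114, 159 and 139 CPM in normal replicates 1 to 5. Deficient replicates 1 and 2 and normal replicate 1 were high and deficient replicate 3 was lowest, so the diets were mixed (log2 difference 0.18 with SE 0.28, edgeR adjusted p = 0.998). The difference was 0.04 without deficient replicate 1, 0.05 without deficient replicate 2, 0.02 without the 2 libraries with most Gapdh, 0.38 without normal replicate 1 and 0.41 without the 3 libraries richest in muscle.

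Hsph1 encodes HSP110, which resets HSP70 by exchanging its nucleotide and helps to take apart aggregates; it lies on chromosome 5 at 149614287 to 149636376, reverse strand. Its values were 527, 436, 273, 537 and 347 CPM in deficient replicates 1 to 5 and 432, 284, 216, 458 and 257 CPM in normal replicates 1 to 5. Deficient replicates 1 and 4 lay above every normal library and the other 3 within the normal range (424 ± 114 and 330 ± 109 CPM; SD, n = 5 each; log2 difference 0.36 with SE 0.24, edgeR adjusted p = 0.903). Without the 3 libraries richest in muscle the log2 fold change was 0.56 with SE 0.23 (adjusted p = 0.562 by edgeR), without the 2 with most Gapdh 0.19, and with 1 library left out 0.24 (normal replicate 3) to 0.51 (normal replicate 4). By limma voom with sample weights it was 0.62. The site with its heat shock dyad, 30 bases at chr5:149636351-149636380 on the reverse strand, shows the dyad in capitals:

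Hsph1: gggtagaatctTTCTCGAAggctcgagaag

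The dyad begins 33 and 54 bases before the 2 RefSeq starts of Hsph1. It lies within an annotated exon of Hsph1. In the 2 promoter entries of Dnajb1 a dyad was not found. The second of those entries has 245 of its 250 bases in an annotated exon of Dnajb1 itself.

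Among the 10 genes Hsp90ab1 had the highest level per kilobase of exon. Hsp90ab1, the constitutive form, lies on chromosome 17 at 45567775 to 45573271, and Hsp90aa1, the form that heat induces, on chromosome 12 at 110690605 to 110702728, both on the reverse strand. Hsp90ab1 stood at 3973, 4276, 2944, 4426 and 4425 CPM in deficient replicates 1 to 5 and at 3830, 2959, 3221, 3332 and 3983 CPM in normal replicates 1 to 5. Deficient replicates 2, 4 and 5 lay above every normal library, while deficient replicate 3 was the lowest of all 10. The means were 4009 ± 623 and 3465 ± 429 CPM (SD, n = 5 each), a log2 fold change of 0.21 with SE 0.16 (adjusted p = 0.943 by edgeR). By limma voom with sample weights, which gave 2.88% of tested genes an adjusted p under 0.05, Hsp90ab1 had a log2 fold change of 0.36 with SE 0.09 and did not pass (adjusted p = 0.0531).

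Hsp90aa1 was the steadiest of the 10 genes. Its values were 412, 452, 472, 496 and 400.2 CPM in deficient replicates 1 to 5 and 442, 414, 373, 491 and 369 CPM in normal replicates 1 to 5. Its SD within diets, 0.153 on the log2 scale, was above that of only 13.6% of tested genes, and the log2 fold change was 0.10 with SE 0.12 (adjusted p = 0.984 by edgeR). Of its runs of 100 bases 38.0% occur in other transcripts, mostly Gm12346, against 0 for Hsp90ab1. Hsp90ab1 had a SD of 0.216 on the same scale.

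Hspb1 encodes HSP27 (HSP25 in the mouse), a small heat shock protein that holds unfolded proteins without using ATP and is known in epithelium and muscle. It lies on chromosome 5 at 135887919 to 135889563, forward strand. In these tumours it was scarce, with 23 to 286 counts per library. Its values were 1.14, 1.38, 7.49, 12.3 and 1.80 CPM in deficient replicates 1 to 5 and 2.59, 1.12, 1.45, 1.94 and 2.27 CPM in normal replicates 1 to 5. Deficient replicates 3 and 4 stood above all others and the other 3 deficient libraries lay within the normal range.

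The log2 fold change of Hspb1 was 1.38 with SE 0.63 (adjusted p = 0.735, unadjusted p = 0.0475 by edgeR). Deficient replicates 3 and 4 are the 2 libraries with the most skeletal muscle transcripts, 6124 and 1576 CPM. Without them and normal replicate 4 the log2 fold change turned to -0.37 with SE 0.39 (adjusted p = 0.836 by edgeR), and without deficient replicate 4 alone it was 0.68 with SE 0.55. The small heat shock genes Hspb6 and Hspb7 were also highest in deficient replicate 3, at 94.5 and 34.5 CPM, and stood at 35.5 and 26.2 CPM in deficient replicate 4. In the other 3 deficient libraries both lay below every normal library, Hspb6 at 14.9 to 17.5 against 23.1 to 30.4 CPM and Hspb7 at 6.31 to 7.01 against 7.20 to 22.0 CPM. The stretch that holds the 2 dyads of the Hspb1 promoter, chr5:135887772-135887859 on the forward strand, is printed with both in capitals:

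Hspb1: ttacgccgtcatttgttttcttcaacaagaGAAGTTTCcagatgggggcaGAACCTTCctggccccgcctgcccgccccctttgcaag

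These begin 117 and 97 bases before the start. Of Hspb1's runs of 100 bases 44.0% occur also in the pseudogene Hsp25-ps1.

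**Figure D3:**
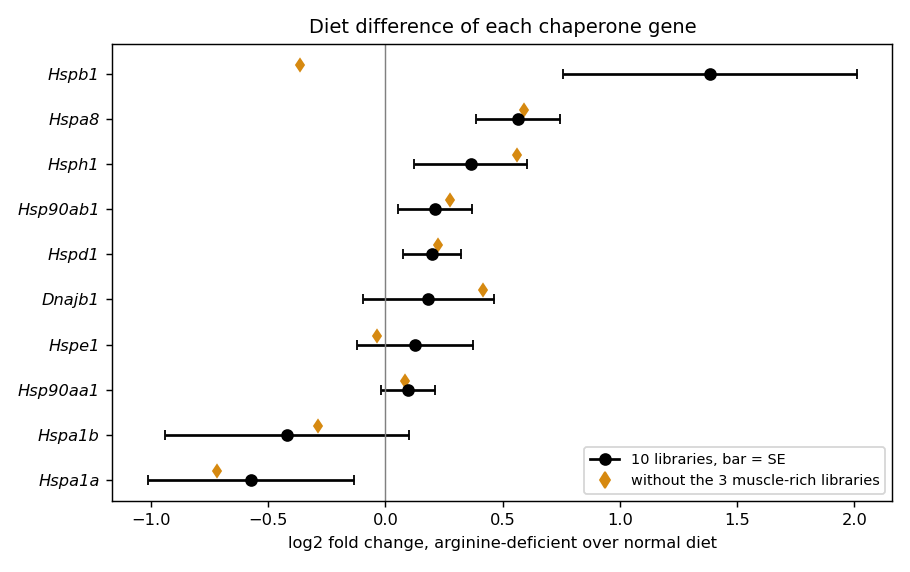
Log2 fold change of each gene, arginine-deficient over normal diet; black points are from all 10 libraries with their SE as bars, orange diamonds from the 7 libraries left without the 3 richest in muscle. Hspb1 moves from 1.38 to -0.37, Hsph1 from 0.36 to 0.56, and Hspa8 from 0.57 to 0.59.

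The mitochondrial chaperonin is a ring of HSP60, encoded by Hspd1, closed by a lid of HSP10, encoded by Hspe1. The genes stand head to head on chromosome 1, Hspd1 at 55077835 to 55088243 on the reverse and Hspe1 at 55088132 to 55091307 on the forward strand. Their first exons overlap, over 4.24% of the exonic bases of Hspd1 and 7.60% of those of Hspe1, and without strand use reads there cannot be told apart. RefSeq gives Hspd1 a start on either side of the Hspe1 start, 95 bases beyond it and 216 bases before it. In those 216 bases lies one run of heat shock units, printed as read on each strand with the units in capitals (chr1:55088053-55088082):

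Hspd1: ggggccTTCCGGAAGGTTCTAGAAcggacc
Hspe1: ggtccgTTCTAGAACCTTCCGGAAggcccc

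The run begins 144 bases before that second Hspd1 start and 89 bases before the Hspe1 start. The first Hspd1 start has no dyad in its 250 bases. The run lies within an annotated exon of Hspd1. It holds 3 overlapping dyads, which make 4 alternating units and thus 2 overlapping elements of 3 units (GAANNTTCNNGAA or TTCNNGAANNTTC; a reverse complement has the other form). Of the 32851 promoters 0.466% hold that longer element, and among the 10 promoter entries matched to 7 of the genes it was found in 2, for Hspd1 and Hspe1. A dyad was found in 7 of the 10 entries, and in 12.8% of all promoters. The 7 are not separate sites. Hspd1 and Hspe1 share the run printed above, the 2 entries of Hsph1 share a dyad, and Hspa1a and Hspa1b are near copies. Hspa8, Hsp90aa1 and Hsp90ab1 had no entry.

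Hspd1 stood at 608, 511.5, 627, 535 and 543 CPM in deficient replicates 1 to 5 and at 482, 458, 397, 561 and 564 CPM in normal replicates 1 to 5. All deficient libraries lay above the normal mean, and deficient replicates 1 and 3 above every normal library (565 ± 49.7 and 493 ± 71.2 CPM; SD, n = 5 each; log2 difference 0.20 with SE 0.12, edgeR adjusted p = 0.884). Hspe1 stood at 50.0, 45.0, 64.1, 44.0 and 27.9 CPM in deficient replicates 1 to 5 and at 43.4, 36.6, 25.2, 43.1 and 64.1 CPM in normal replicates 1 to 5. Deficient replicate 3 and normal replicate 5 were the highest and shared a level, and the diets were mixed (log2 difference 0.13 with SE 0.25, edgeR adjusted p = 0.998; -0.03 without the 3 libraries richest in muscle).

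Ratios of 2 genes within a library need no scaling between libraries, so 3 were compared, with 0.5 added to each count. The log2 ratio of Hspd1 to Hspe1 counts averaged 3.66 ± 0.37 on the deficient and 3.59 ± 0.31 on the normal diet (SD, n = 5 each), a difference of 0.07 (exact two-sided permutation p = 0.770, adjusted over the 3 ratios 0.770). The log2 ratio of the inducible Hsp90aa1 to the constitutive Hsp90ab1 averaged -3.16 ± 0.31 and -3.05 ± 0.27, a difference of -0.10 (exact permutation p = 0.563, adjusted 0.770). The log2 ratio of Hspa1a plus Hspa1b to Hspa8 averaged -3.80 ± 1.21 and -2.84 ± 0.92, a difference of -0.96 (exact permutation p = 0.190, adjusted 0.571). With 1 library left out this difference ran from -1.33 (deficient replicate 2) to -0.54 (deficient replicate 3), and that of the HSP90 pair from -0.23 (deficient replicate 3) to -0.03 (deficient replicate 5). The Hspd1 to Hspe1 difference was -0.09 without deficient replicate 5 and 0.17 without normal replicate 3. The log2 ratio of Hspa1a plus Hspa1b to Hspa8 itself ran from -5.49 in deficient replicate 3 to -1.83 in normal replicate 1, wider than the gap between the diets. A ratio does not remove a library's GC slope: Hspa1a and Hspa1b are 58.95% and 58.1% GC, and Hspa8 49.5%. The slope was lowest in deficient replicate 3 (-0.52), while deficient replicate 5 had a ratio of -4.38 at a slope of 0.11. The part of the slope, and of Hspa1a and Hspa1b reads dropped or shared, was not tested. The smallest p that 5 against 5 libraries allow is 0.00794.

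With each diet's mean removed, some of the genes varied together over the 10 libraries, given here as Pearson r of log2(CPM + 1) and as a description only. Hspa1b went with Dnajb1 (0.87) and Hsp90ab1 (0.79), and Dnajb1 with Hsph1 (0.82). Hsph1 had an r of 0.58 with Hsp90aa1, 0.55 with Hspa1b and 0.46 with Hsp90ab1. Hspd1 went with Hspe1 (0.78) and with Hspa8 (0.66), and Hspe1 had an r of 0.54 with Hspa1a and 0.52 with Hspa8. Hspa8 and Hspa1b, constitutive and inducible HSP70, had an r of -0.07, and Hsp90aa1 and Hsp90ab1 one of -0.19. All points share the library, its depth and its GC slope, and in deficient replicate 3 Hspa1b, Dnajb1 and Hsp90ab1 were all at their lowest.

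**Figure D4:**
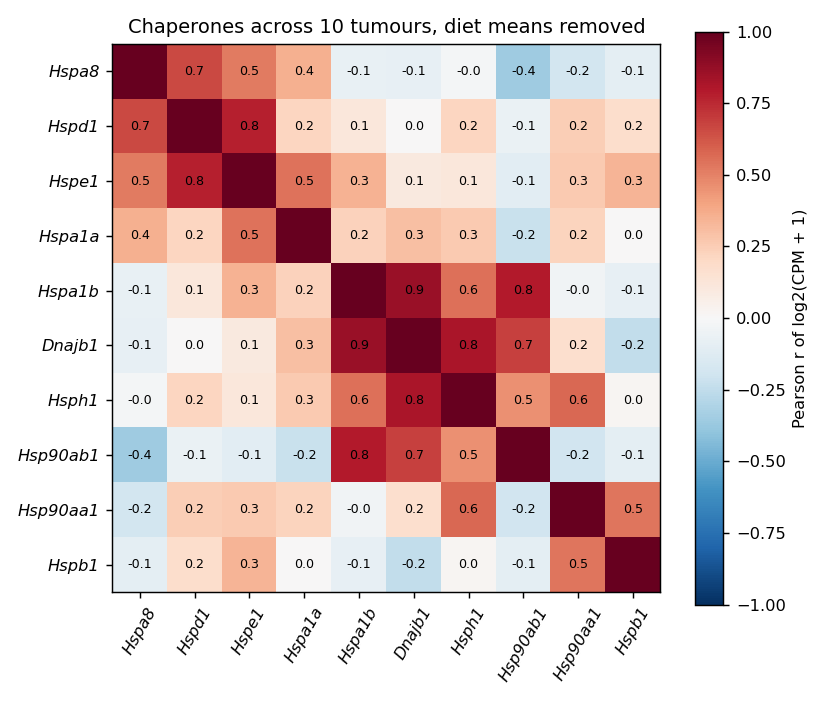
Pearson r between the chaperone genes over 10 tumours after the mean of each diet was removed from log2(CPM + 1). The highest value is that of Hspa1b with Dnajb1, 0.87, followed by Dnajb1 with Hsph1, 0.82, while Hsp90aa1 with Hsp90ab1 is at -0.19.

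Likeness to other genes was taken over the 10 libraries with the diet means kept, so a diet difference enters r here, unlike above. Among 10368 other genes averaging at least 5 CPM, those most like Hspa8 (Pearson r of log2(CPM + 1)) were Entpd7 (0.94), Psmd11 (0.90) and Ddx18 (0.89). Most like Hspa1b were Nek2 (0.95), Has1 (0.95) and Mul1 (0.94). Most like Hsp90aa1 were Pnn (0.94), Pigm (0.86) and Rpusd2 (0.83). Most like Hspb1 were Tpm2 (0.95), Trim72 (0.94) and Speg (0.94); Tpm2 encodes a tropomyosin, Trim72 a membrane repair protein of striated muscle and Speg a striated muscle kinase. Tpm2 stood at 159 and 149 CPM in deficient replicates 3 and 4 and at 20.9 to 44.8 CPM in the other 8 libraries.

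The wider chaperone network had no gene past the test. Of 7 tested HSP70 and HSP110 genes of the cytosol beyond the 10, 3 were higher and 4 lower (median log2 fold change -0.05); Hspa4, an HSP110 protein, had 0.21 (SE 0.11) and Hspa12a, a distant relative, -0.57 (SE 0.21); its close relative Hspa12b had -0.32 (SE 0.19). J-domain cochaperones were higher in 10 of 14 with a median of 0.06. Among them Dnajc5, a vesicle cochaperone, averaged 246 ± 13.0 against 205 ± 8.82 CPM (SD, n = 5 each), a log2 difference of 0.26 with SE 0.09 (edgeR adjusted p = 0.512). Every deficient library of Dnajc5 lay above every normal one, as in 0.835% of all tested genes. Dnaja4 had 0.78 (SE 0.26) at 3.78 against 2.20 CPM, with 44.0% of its exonic bases inside the spans of other genes, introns included. Dnajc9, a histone chaperone, had -0.27 (SE 0.12). Regulators of HSP70 were split 4 higher and 5 lower (median -0.0041), with Bag3 at 0.25 (SE 0.20) St13 at 0.16 (SE 0.10) and Bag4 at -0.06 (SE 0.17).

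HSP90 cochaperones were higher in 10 of 18 (median log2 fold change 0.03); Stip1, which links HSP70 to HSP90, had 0.19 (SE 0.11), Fkbp5 -0.16 (SE 0.14) and Nudc -0.25 (SE 0.28). Subunits of the cytosolic chaperonin CCT and of prefoldin were split 7 and 7, with a median of 0.04 and Cct6a at 0.27 (SE 0.11), Tcp1 at 0.22 (SE 0.11) and Cct2 at 0.16 (SE 0.10). Genes named as small heat shock proteins, other than Hspb1, had a positive log2 fold change in all 5 tested. Their median was 0.41, with Hspb11, counted by its name only, at 0.19 (SE 0.17). For Hspb6 and Hspb7 only the muscle-rich deficient replicates 3 and 4 lay above the normal range, and the other 3 deficient libraries lay below it. In muscle-rich normal replicate 4 Hspb6 and Hspb7 were at 27.8 and 7.20 CPM, against 23.6 and 22.0 CPM in normal replicate 1. The part of muscle in their sign was not tested. Cryab, the alpha-B crystallin gene of muscle and lens, averaged 43.4 ± 16.8 against 26.1 ± 9.60 CPM (SD, n = 5 each). Its log2 difference was 0.73 with SE 0.30 (edgeR adjusted p = 0.657). Its values were 39.15, 37.5, 62.5, 57.1 and 20.6 CPM in deficient replicates 1 to 5. In normal replicates 1 to 5 they were 42.4, 18.1, 20.0, 25.0 and 25.15 CPM. Deficient replicates 3 and 4 and normal replicate 4 were the muscle-rich libraries, and the part of muscle was not tested. Hspb8, a partner of Bag3, averaged 108.5 ± 12.7 against 84.4 ± 10.2 CPM (log2 difference 0.36 with SE 0.12, edgeR adjusted p = 0.512); it was highest in deficient replicate 2 (125 CPM), a library with 8.91 CPM of muscle markers.

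Mitochondrial chaperones and proteases were higher in 12 of 16 (median log2 fold change 0.05). Hspa9, the HSP70 of mitochondria, which pulls proteins through the inner membrane, had the smallest p of that list, ahead of Dnaja3 (0.19, SE 0.13) and Hscb (-0.38, SE 0.26). It stood at 1948, 2150.0, 1241, 1602 and 2107 CPM in deficient replicates 1 to 5 and at 1105, 1186, 1167, 1376 and 1340.0 CPM in normal replicates 1 to 5. Deficient replicate 3 lay inside the normal range and the other 4 above it (log2 difference 0.55 with SE 0.16, edgeR adjusted p = 0.419). The HSP70 of the endoplasmic reticulum, Hspa5, had a like order: 1808, 1900.0, 1157, 1693 and 1928 CPM against 1229, 1176, 1123, 1396 and 1253 CPM (log2 difference 0.46 with SE 0.15, edgeR adjusted p = 0.512).

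The HSP70 genes Hspa8 of the cytosol, Hspa9 of mitochondria and Hspa5 of the endoplasmic reticulum thus had log2 fold changes of 0.57, 0.55 and 0.46, none past the test. In deficient replicate 3 they differed: Hspa8 was second highest of all 10 libraries there, while Hspa9 and Hspa5 were within the normal range. Endoplasmic reticulum chaperones as a list were higher in 14 of 17, with a median of 0.19, Hyou1 at 0.48 (SE 0.19) and Manf at 0.42 (SE 0.16). Hspa8, Hspa9 and Hspa5 were picked for this comparison after their values were seen.

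Targets of HSF1 beyond the 10 genes were higher in 24 of 29 (median log2 fold change 0.16), with 3 at an unadjusted p under 0.05 (Hspa9, Hspb8 and Cryab), where 3.54% of all tested genes were higher at that level. These 3 genes are the same ones described above in the mitochondrial and small heat shock lists. Cryab was highest in the muscle-rich deficient replicates 3 and 4, and stood at 25.0 CPM in muscle-rich normal replicate 4. Hsf1 itself averaged 93.9 ± 14.8 against 87.4 ± 12.0 CPM (SD, n = 5 each; log2 difference 0.10 with SE 0.14, edgeR adjusted p = 0.998) and Hsf2 27.1 ± 8.83 against 26.3 ± 4.91 CPM (log2 fold change 0.04, SE 0.21). Heat shock factors and their regulators were split 5 higher and 3 lower, with Hdac6 at -0.19 (SE 0.12), Hsf4 at -0.26 (SE 0.25) and Vcp at 0.15 (SE 0.14). For reference, immediate early genes were higher in 17 of 18 with a median of 0.22. Targets of ATF4, the factor of the amino acid stress response, were higher in 23 of 24 with a median of 0.38. Of those 2 passed, Pycr1 (log2 difference 1.05, SE 0.14) and Aldh1l2 (1.38, SE 0.18), where 0.0541% of all tested genes passed. Of all tested genes 50.3% had a positive log2 fold change. These lists were chosen with earlier results of these data known.

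**Figure D5:**
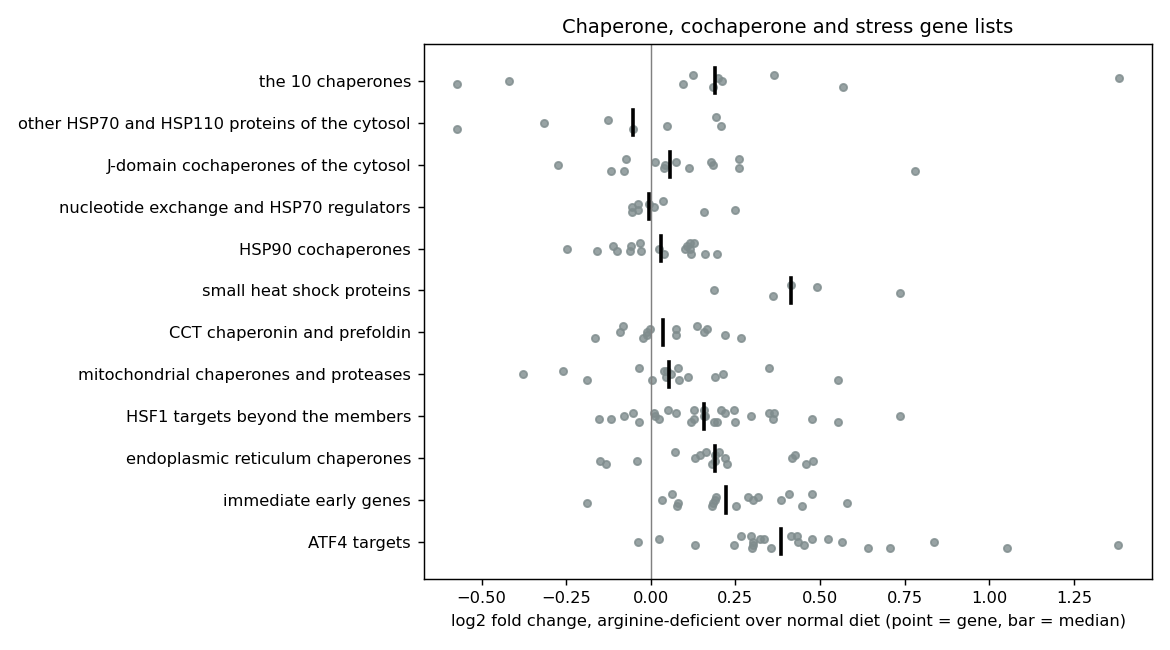
Log2 fold change, arginine-deficient over normal diet, of each tested gene (points) by list, with the median of the list as a bar. The 10 chaperones have a median of 0.19, HSP90 cochaperones one of 0.03 and ATF4 targets one of 0.38.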

How the data were processed

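Per the submitters' processing notes, reads went through FastQC, STAR and featureCounts with mm10 as the genome, and the authors deposited the unnormalized counts, with a column for each tumour. Tool versions, settings, read length and strand use are not stated in the sources at hand. The labels' protocols name TRIzol for the RNA. Each column was matched to its library by the number in the sample's description. Symbols and positions came from GENCODE M21 on the same build (33 of 21849 identifiers had no symbol), promoters from RefSeq (GRCm38.p6).

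Diets were compared with the quasi-likelihood test of edgeR 4.0.16 in R 4.3.3, with TMM factors, filterByExpr at its defaults, diet as the only term, Benjamini-Hochberg over 12929 genes. Each SE was derived from the fold change and its F value. CPM values use TMM factors; those of marker sums and Gapdh use library totals. CPM per kb divides by the merged exon length. Libraries of one diet differed by a chi-square per degree of freedom of at least 16.7. The fit was tested on simulated data in 3 draws. Recovery was 16.4% (33 of 201 genes) where the diets were set 1.5-fold apart, 67.2% at 2-fold and 98% at 4-fold. False calls came to 16 over all draws. A gene 1.5-fold apart would thus mostly be missed, so a chaperone that did not pass is not shown to be unchanged.

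Genes named were the 10, up to 3 of smallest p from a list, the 3 most alike for 4 of the genes, and Hsf1 and Hsf2; where others are named, Hspb6, Hspb7 and the marker genes among them, they were chosen after their values were seen. The genes and lists were chosen with earlier results of these data known. Alternatives were other factors and filters, DESeq2 1.42.0, limma voom (limma 3.58.1), a replicate block, subsets of libraries, GC and length slopes, and the 2 Hspa1 copies added.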

Additional observations from a re-analysis of the deposited data

How the results depend on the processing

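None of the 10 chaperones passed under any of the 21 alternative fits and subsets, and 204 of 209 values of single genes kept their direction. Hspb1 turned to -0.37 and Hspe1 to -0.035 without the 3 libraries richest in muscle. Hspe1 ran from -0.016 to 0.32 with 1 library left out (-0.016 without arginine-deficient replicate 3, -0.015 without normal replicate 3), and Hspa1b was 0.089 by limma voom with sample weights. The log2 ratio of Hspd1 to Hspe1 differed between the diets by -0.029 without the 2 libraries with most Gapdh, and by -0.087 to 0.17 with 1 library left out (negative without arginine-deficient or normal replicate 5). The cause of these turns was not tested.

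Over all genes, 7 passed; 131 did by DESeq2 (69 higher, 62 lower), 373 by limma voom with sample weights, 68 with GC and gene length slopes as covariates (35 higher, 33 lower), 18 with the muscle-rich libraries left out and 0 with the pair of highest Gapdh left out (907 had an unadjusted p under 0.05 by edgeR). With 1 library left out 0 to 16 passed: 0 without normal replicate 1 or 3, 2 without arginine-deficient replicate 1, 2 or 5 or normal replicate 2, 16 without arginine-deficient replicate 3 and 15 without normal replicate 5. With a replicate block 1 gene passed and none of the 10. The numbers gave correlations of deviations from -0.41 to 0.20, 1 of 5 over 0.1, and 0 of 5 deficient libraries correlated best with its own number, so they were not read as pairs. The block changed no call for the 3 ratios; 5 pairs cannot give a p under 0.0625. Depth limits Hspa1a, with 5 to 55 counts per library, and Hspb1, with 23 to 286.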
